A study of Mus musculus with 12 samples.

Results

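The MORC family of nuclear ATPases was examined in male germ cells of newborn mice that carry or lack a working copy of Morc1. The 5 genes Morc1, Morc2a, Morc2b, Morc3 and Morc4 were found by the Ensembl identifiers that GENCODE release M21 (GRCm38) gives for these symbols, among 35666 genes in the table. The cells are labelled gonocytes, the precursors of spermatogonia, and were isolated from testes of mice that carry the Mvh-Venus reporter, which marks germ cells through the Ddx4 (Mvh) gene. At postnatal day 0 (P0), 3 libraries came from Morc1 (+/-) animals (het) and 3 from Morc1 (-/-) animals (KO), so the controls also carry 1 disrupted allele. The structure of the allele and the number of animals behind a library are not given in the sources used here, so p-values measure only the spread between these libraries. A matching set of 6 libraries at postnatal day 3 was not analysed here. The question put to the data was how much of each other MORC gene these cells contain, and whether any of them changes when Morc1 is lost.

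MORC proteins share an ATPase domain of the GHKL type, the fold also used by HSP90, DNA mismatch repair proteins and type II topoisomerases. They also share a CW-type zinc finger, a domain that in some members reads methylated histone H3. Binding of ATP lets a pair of MORC molecules close around DNA, and the family is known for compacting chromatin and silencing genes and transposable elements (TEs). MORC1 acts in the male germ line, where its loss leads to TE expression and infertility. MORC2 works with the HUSH complex, MORC3 is found in PML nuclear bodies, and MORC2B is known for a role in meiosis.

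The libraries held 28363683 to 32816861 reads in genes. Ddx4 was between 17605 and 31038 normalized counts in all 6 libraries. The summed level of 8 germ cell markers was 150854, 163583 and 104548 normalized counts in the het libraries and 174155, 123663 and 133515 in KO, each in the order of replicates 1 to 3, as in all such series of values here. Markers of other testis cells were also present, and no marker of the 6 somatic cell types examined was at 0 in all libraries. The 5 Leydig cell markers summed to 24921 normalized counts in het replicate 3 and to between 509.6 and 1079 in the other libraries, and the 8 Sertoli cell markers ranged from 12649 to 37622, with the highest value again in het replicate 3. All 8 Sertoli markers had a negative log2 fold change in KO (median -0.69). Of these, 3 had an unadjusted limma p under 0.05, against 6.86% of all genes tested. In 3 of the 8, every KO library lay below every het library, against 5.57% of all genes tested. DESeq2 called 1 of the 8, against 1.79% of all genes. Limma and edgeR called 0, against 0.473% and 0.496%. The 4 endothelial markers summed to 2114 to 2739 in het and 3315 to 3774 in KO. Their median log2 fold change was 0.16, with 3 above 0 and 1 below. In 1 of the 4, every KO library lay above every het library, against 7.17% of all genes tested. DESeq2 called 1 of the 4, and limma and edgeR 0, against the same shares of all genes. The part of these cells in the results was not tested. In bulk samples, fewer cells of a type and less RNA per cell cannot be told apart.

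Of the MORC genes, Morc1 was the only member that passed the test between genotypes. All 5 genes were among the 26005 genes with a mean of at least 10 normalized counts that were tested with limma, and a gene was called at a Benjamini-Hochberg adjusted p under 0.05. Morc1 was called lower in KO, and 0 of the other 4 members were called. Over all genes tested, 0.473% were called in either direction and 0.0423% were called lower. None of those other 4 members had an unadjusted limma p under 0.05, and edgeR and DESeq2 on recovered reads called none of them either, against 0.496% and 1.79% of all genes.

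**Figure D1:**
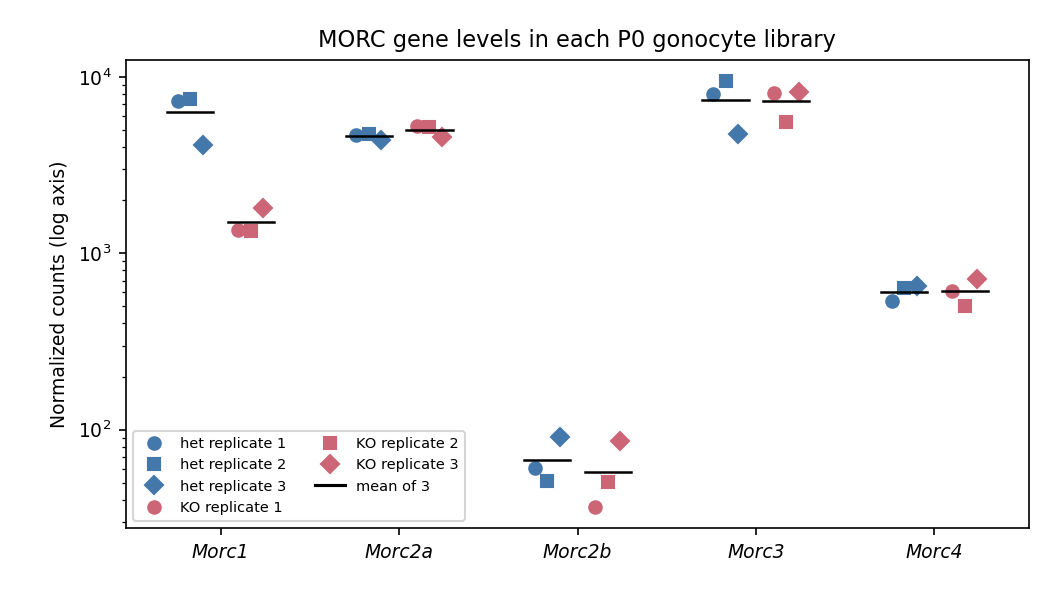
Normalized counts of each MORC gene (log axis) in the 3 het libraries (blue) and the 3 KO libraries (red) at P0, with the replicate number as the marker shape and the mean of 3 as a black line. Morc1 separates the genotypes, with KO at 1343 to 1794 and het at 4126 to 7485, while the points of the other 4 genes overlap between genotypes.

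Morc1 (ENSMUSG00000022652) lies on the plus strand of chr16:48431237-48630900. The het libraries had 7248, 7485 and 4126 normalized counts, whereas KO libraries had 1360.5, 1343 and 1794, so the groups did not overlap and KO held 23.8% of the het mean. Groups that do not overlap were seen in 12.7% of all genes tested, and in 5.57% with KO lower. The log2 fold change was -2.03 (SE 0.27, 95% confidence interval -2.63 to -1.43, limma adjusted p 0.0109). Without the first het library the limma adjusted p was 0.0519, and it was 0.099 or 0.0623 without the first or the third KO library, so that each of these 3 ended the call. It was also lost in limma without trend (adjusted p 0.089) and in edgeR with the replicate number as a block (adjusted p 0.0717). As the targeted gene, Morc1 serves as a check of the genotype labels.

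Morc2a (ENSMUSG00000034543) encodes the mouse MORC2 protein and lies on the plus strand of chr11:3649191-3690477. It had 4701, 4720.3 and 4405 normalized counts in het and 5296, 5214 and 4558 in KO. The highest het value lay above the lowest KO value, so the groups overlapped, and all 6 libraries lay within 1.202-fold of each other. The means were 4609 ± 177 and 5022 ± 404 (SD, n = 3), a log2 fold change of 0.12 (SE 0.18, 95% confidence interval -0.29 to 0.53, limma adjusted p 0.947). On the linear scale this interval runs from 0.819-fold to 1.45-fold. Morc2a was the steadiest member: its SD within a group was 0.09 on the log2 scale, against a median of 0.28 for 1388 protein-coding genes of similar level (within 0.5 log2), of which 3.31% had a lower SD. Exons of Morc2a share 483 bp with Tug1 on the opposite strand, and the strand setting of the counting is not given in the sources used here, so reads from that stretch cannot be assigned to either gene.

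Morc2b (ENSMUSG00000048602), on the minus strand of chr17:33113351-33139683, is a copy of Morc2a whose coding sequence of 3066 bases lies in 1 exon, where that of Morc2a is split over 26. Their longest coding transcripts aligned over 3284 bp at 78.5% identity, which is 84.0% of the Morc2b transcript. The longest run of identical bases was 38 bp, whereas for the other pairs of MORC genes it was 12 to 15 bp. The 120-base stretch of coding sequence around that run is shown from both genes because it is where reads of the abundant gene could most easily be counted on the rare one. Capitals mark the 11 bases that differ between them. The Morc2a stretch spans exons 13 and 14 (chr11:3679679-3679881, plus strand, an intron left out) and the Morc2b stretch lies at chr17:33137581-33137700 on the minus strand (GENCODE M21 transcripts, GRCm38).
Morc2a: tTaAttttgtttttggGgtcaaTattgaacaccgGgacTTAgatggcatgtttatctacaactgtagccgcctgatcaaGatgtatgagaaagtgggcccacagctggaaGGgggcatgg
Morc2b: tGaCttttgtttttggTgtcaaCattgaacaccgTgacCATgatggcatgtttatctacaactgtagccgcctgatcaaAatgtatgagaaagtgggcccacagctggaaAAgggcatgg

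Morc2b was the rarest member. It had 61.0, 51.2 and 90.7 normalized counts in het and 36.6, 50.6 and 86.2 in KO, which correspond to 37 to 93 reads per library. Replicate 3 was the highest library of either genotype, and the groups overlapped. The means were 67.6 ± 20.6 and 57.8 ± 25.6 (SD, n = 3), with a log2 fold change of -0.27 (SE 0.45, limma adjusted p 0.949). Its 95% confidence interval, from -1.28 to 0.74 or from 0.413-fold to 1.67-fold, was the widest of the family. The sign turned without KO replicate 1 (log2 fold change 0.0086). How reads that match several places were counted is not given in the sources used here. The Morc2b values are therefore uncertain wherever its sequence matches Morc2a, which had at least 4405 normalized counts in every library.

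Morc3 (ENSMUSG00000039456), which reads trimethylated lysine 4 of histone H3 through its CW domain, lies on chromosome 16 like Morc1, at chr16:93832121-93876073 on the plus strand. It had 7997, 9435 and 4771 normalized counts in het and 8098, 5527 and 8169.7 in KO. The lowest values were in het replicate 3 and KO replicate 2, so 1 library of each genotype was low and the others were high. The means were 7401 ± 2388 and 7265 ± 1505 (SD, n = 3), a log2 fold change of 0.01 (SE 0.28, 95% confidence interval -0.62 to 0.63, limma adjusted p 0.998). In fold terms the interval runs from 0.652 to 1.55. The sign is not settled: it was -0.28 (SE 0.23, limma adjusted p 0.83) without het replicate 3 and 0.19 without KO replicate 2. Its SD within a group was 0.43 on the log2 scale, above that of 82.2% of 902 protein-coding genes of similar level. The same 2 libraries had the lowest germ cell marker sum of their genotype, 104548 in het replicate 3 and 123663 in KO replicate 2, and the part of this in the Morc3 values was not tested.

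Morc4 (ENSMUSG00000031434), the X-linked member, lies on the minus strand of chrX:139821632-139871677. It had 533, 638 and 649 normalized counts in het and 610.5, 503 and 715 in KO, with the lowest and the highest library both from KO. The means were 607 ± 64.0 and 609.7 ± 106 (SD, n = 3), and the log2 fold change was 0.00 in size (-0.0022, SE 0.24, limma adjusted p 0.999). The 95% confidence interval, -0.55 to 0.54, corresponds to 0.685-fold to 1.46-fold. The sign turned in several alternative fits, and no fit called the gene.

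**Figure D2:**
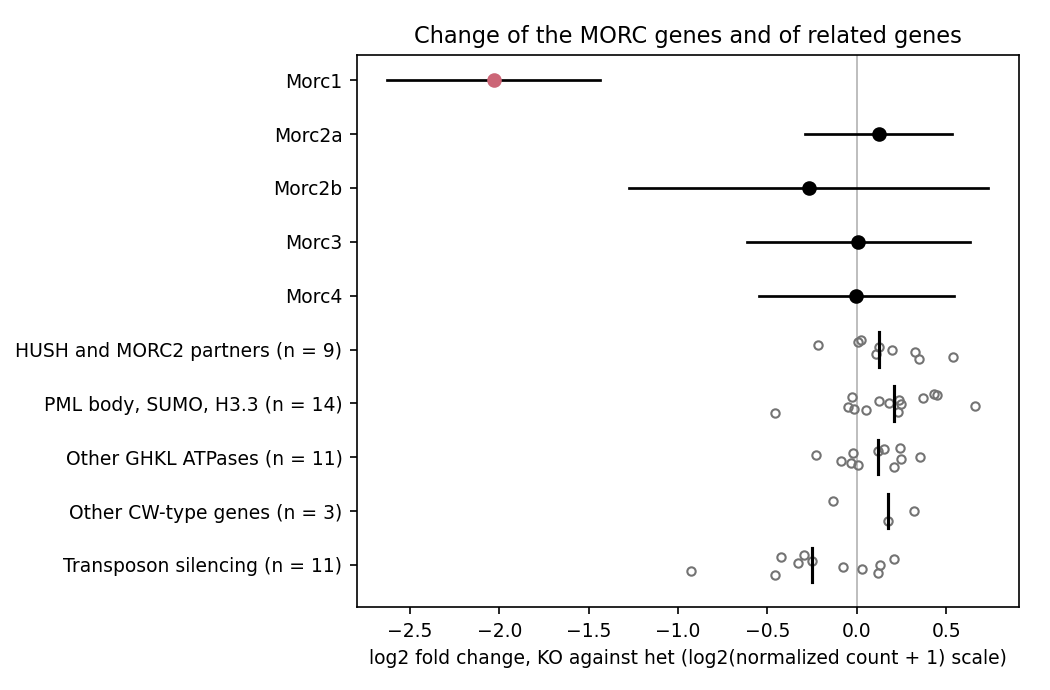
Log2 fold change of KO against het on the log2(normalized count + 1) scale, with 95% confidence intervals for the 5 MORC genes (red, adjusted p under 0.05) and, below them, single related genes as open circles with the median of each list as a black bar. The interval of Morc1 ends at -1.43, and the intervals of the other 4 include 0 and end at no more than 0.74.

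To set the genes beside each other, normalized counts were divided by the length of all annotated exons of each gene. Per kb of exon, het libraries had 1363 ± 440 normalized counts of Morc3, 970.3 ± 289 of Morc1, 718 ± 27.5 of Morc2a, 100.3 ± 10.6 of Morc4 and 14.4 ± 4.37 of Morc2b (SD, n = 3). The top 3 were not separated by their spread: the ranges of Morc3 and Morc1 overlapped, as did those of Morc1 and Morc2a, and in het replicate 3 Morc1 (637) was below Morc2a (686). Morc2a stood 7.16-fold above Morc4, and Morc4 6.98-fold above Morc2b, with no overlap in either case. Among the protein-coding genes tested, 92.5% had a lower level per kb than Morc3 in het, 89.4% lower than Morc1, 85.6% lower than Morc2a, 44.4% lower than Morc4 and 10.6% lower than Morc2b.

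The order of Morc1 and Morc3 in het turned with the length used. With the longest coding transcript, which for Morc1 is 3045 bp against 6479 bp of annotated exon, Morc1 had 2065 ± 616 normalized counts per kb and Morc3 1771 ± 571 (SD, n = 3). In KO the order was Morc3, Morc2a, Morc1, Morc4 and Morc2b with each of the lengths and scalings tried. Morc1 remained above Morc4 there: 231 ± 39.4 against 100.8 ± 17.5 normalized counts per kb of exon (SD, n = 3), with no overlap.

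The summed level of the 4 members other than Morc1 was 2306, 2589 and 1691 normalized counts per kb of exon in het and 2425, 1924 and 2351 in KO. The lowest and the highest of these 6 values were both from het libraries. The means were 2195 ± 459 and 2233 ± 270.5 (SD, n = 3). With Morc1 included, het libraries summed to 3424, 3744 and 2328, and KO libraries to 2635, 2131 and 2628, and the ranges still overlapped because of het replicate 3. Morc1 made up 32.7%, 30.9% and 27.4% of the family sum in het and 7.97%, 9.73% and 10.5% in KO. With the longest coding transcript as length, its share was 42.5% ± 2.99 in het and 15.1% ± 1.97 in KO (SD, n = 3), so the size of the share depends on the length used. No test was made on these sums, since the members were chosen together.

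**Figure D3:**
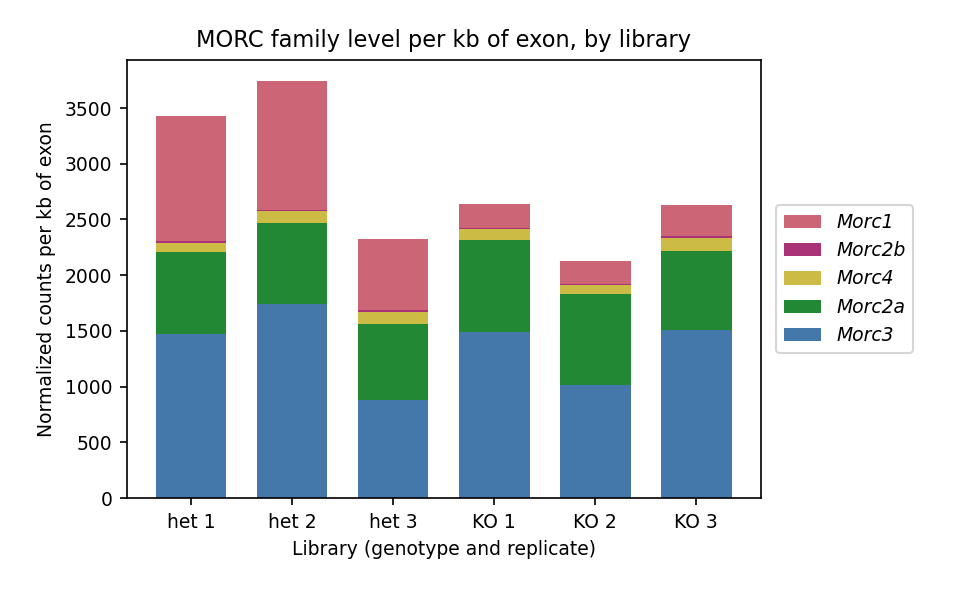
Normalized counts per kb of exon of the 5 MORC genes, stacked, for each P0 library. The part above Morc2b is Morc1, which falls from 637 to 1155 in het to 207 to 277 in KO, while the stack of the other 4 genes lies between 1691 and 2589 in het and between 1924 and 2425 in KO.

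Reads on TE copies within the MORC genes gave a second readout along the same genes. The TE table listed 42 copies within Morc1, 6 within Morc2a, 4 within Morc2b, 5 within Morc3 and 7 within Morc4, each with its own normalized count and without a family name. With limma, 15.6% of the 49781 copies that reached a mean of 10 were called higher in KO and 0.735% lower, or 16.3% in all. Of the 22 copies within the members other than Morc1, 4 reached that mean, and 0 were called by limma or by edgeR, which called 13.7% of all copies (0 with an unadjusted limma p under 0.05). Their log2 fold changes ran from -0.22 to 1.09.

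In Morc1, 5 copies were tested and 2 of them were called, in opposite directions. Both lie in introns and on the strand opposite to the gene. The copy at chr16:48520972-48524106 (3135 bp, 91.3 kb from the Morc1 start) held 55, 39 and 39 reads in het and 0 in every KO library. This copy reached the mean needed for testing only through the het libraries. It was at least 17.95-fold lower in KO, computed against a floor of 3 reads per library (limma log2 fold change -5.54, SE 0.89, adjusted p 0.00171), and its call was lost without het replicate 1 or 2 (adjusted p 0.0976 and 0.0734). The copy at chr16:48490648-48498011 (7364 bp, 63.1 kb from the start) held 12, 27 and 12 reads in het and 135, 166 and 103 in KO. Over all copies tested, 15.6% were called higher in KO. The copy at 63.1 kb was called in all 15 alternative fits. Its normalized mean rose 6.34-fold (limma log2 fold change 2.71, SE 0.48, adjusted p 0.00291). Whether these reads were also counted in the Morc1 gene value is not given in the sources used here.

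**Figure D4:**
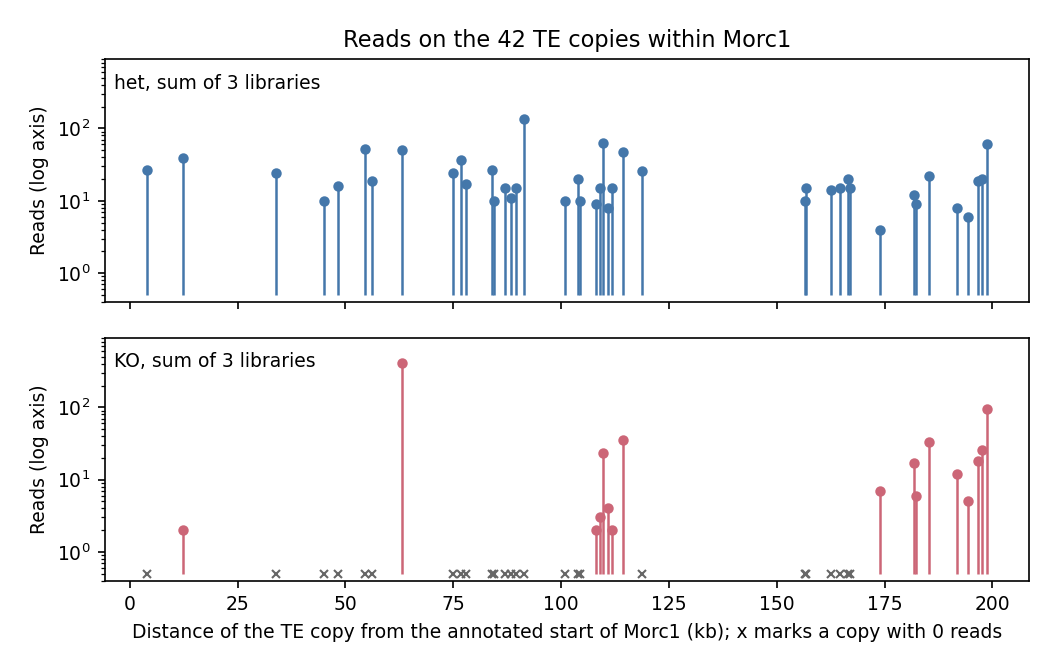
Reads (log axis) on each of the 42 TE copies within Morc1, summed over the 3 het libraries (upper panel) and the 3 KO libraries (lower panel), against distance from the annotated start of Morc1 in kb. A cross marks a copy with 0 reads. KO reads are confined to 1 copy at 63.1 kb with 404 reads, 1 at 12.2 kb with 2 reads, the 6 copies from 108.08 to 114 kb and the 9 copies from 174 to 198.7 kb.

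The copies of Morc1 fell into stretches, set here after their values were seen. Apart from the copy at 63.1 kb, the 19 copies from 3.99 to 104 kb had 161, 207 and 148 het reads, against 0, 0 and 2 in KO. The 6 copies from 108.08 to 114 kb held 28, 26 and 102 reads in het and 20, 28 and 21 in KO. The 7 copies from 119 to 166.9 kb held 41, 31 and 43 reads in het and 0 in each KO library. The 9 copies from 174 to 198.7 kb, at the far end of the gene, held 73, 51 and 37 reads in het and 48, 64 and 108 in KO. Of the KO reads along Morc1, 404 lay on the 1 copy that rose. The rest lay mainly at the 3' end and, with fewer reads, near the middle of the gene. For a single copy in 1 library, a count of 0 limits what can be shown, since 3 or fewer reads cannot be told from none. The sums over stretches rest on more reads, but the stretches were drawn from these same values.

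Related genes were then examined in 5 lists, which hold partners of MORC2 and MORC3, other genes with a GHKL or CW domain, and other transposon silencing genes. Of their 48 genes, all were tested, 0 were called by limma, edgeR or DESeq2, and 4 had an unadjusted limma p under 0.05, against 6.86% of all genes tested. The median log2 fold change of all genes tested was -0.02.

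The 9 HUSH complex genes and partners of MORC2, which silence young LINE-1 elements and integrated DNA through methylation of histone H3 lysine 9, stood at a median log2 fold change of 0.12, with 8 above 0 and 1 below. Fam208b (Tasor2), a paralog of the HUSH scaffold gene Fam208a (Tasor), had 2869, 3163 and 2697 normalized counts in het and 4407, 4004 and 4252 in KO. These groups did not overlap, but the gene missed the threshold (log2 fold change 0.54, SE 0.19, limma adjusted p 0.522). Pphln1, which encodes the HUSH subunit periphilin, had a log2 fold change of 0.33 (SE 0.21, limma adjusted p 0.857). Setdb1, the histone methyltransferase recruited by HUSH, had 0.19, and Mphosph8, the subunit that binds methylated histone H3, had 0.11.

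For the 14 genes of PML bodies, SUMO conjugation and histone H3.3, which are linked to MORC3, the median log2 fold change was 0.21, with 10 above 0 and 4 below. Sumo2, a SUMO modifier, had 1749.8, 2113 and 2614 normalized counts in het and 3155, 2826 and 4264 in KO, groups that did not overlap (log2 fold change 0.66, SE 0.24, limma adjusted p 0.57). H3f3a, a gene for histone H3.3, had 14079, 15846 and 15665 in het and 23285, 20140.3 and 18941 in KO, also without overlap (log2 fold change 0.45, SE 0.18, limma adjusted p 0.65). Near-identical processed copies of H3f3a exist in the genome, so its reads are uncertain. Groups that do not overlap with KO higher were seen in 7.17% of all genes tested.

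The 11 other GHKL ATPases had a median log2 fold change of 0.12, and 0 had an unadjusted limma p under 0.05. Mlh3, a gene of meiotic recombination, had a log2 fold change of -0.23 (SE 0.22, limma adjusted p 0.91) with overlapping groups. Smchd1, a GHKL protein that silences the inactive X chromosome, had 4972 normalized counts on average in het and 5793 in KO (log2 fold change 0.21). Among the 3 other CW-type zinc finger genes, Zcwpw1, a histone reader of meiotic cells, had a log2 fold change of 0.18 and Zcwpw2 one of 0.32, with limma adjusted p-values of 0.931 and 0.937.

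The 11 other transposon silencing genes of the male germ line stood at a median log2 fold change of -0.25, with 4 above 0 and 7 below. Spocd1, which links the nuclear Piwi protein to DNA methylation, had 12403, 12184 and 12387 normalized counts in het and 9982, 4374 and 6255 in KO. The het libraries were tight and every KO library was below them, yet the gene missed the threshold (log2 fold change -0.93, SE 0.28, limma adjusted p 0.347). Piwil4, the nuclear Piwi protein itself, had 4533, 3966 and 2998 in het and 3642, 1939 and 2944 in KO, which overlap (log2 fold change -0.46, SE 0.27, limma adjusted p 0.837).

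Genes beside the MORC genes were examined. A targeted locus can carry its neighbours, but of the MORC genes only Morc1 was targeted, so this reason applies only around Morc1. Within 500 kb of a MORC gene the annotation places 87 protein-coding genes, of which 74 were tested. Limma and edgeR called 0 of them, DESeq2 called 1, against 1.79% of all genes. An unadjusted limma p under 0.05 was seen for 5 of the 74, against 6.86% of all genes, so these counts were near the background. The gene called by DESeq2 was Olfr63, an olfactory receptor gene 125 kb from Morc2b, named after its values were seen. It had no read in het and 9.89, 53.7 and 25.5 normalized counts in KO. Olfr63 thus reached the mean needed for testing only through the KO libraries. Against a floor of 3 reads per library it was at least 10.3-fold higher (limma adjusted p 0.178, DESeq2 adjusted p 0.00041).

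The 9 tested genes around Morc1, the targeted gene, had a median log2 fold change of 0.28, and 0 were called by limma, edgeR or DESeq2. Its nearest neighbours were Gm5485, 18.8 kb before its start, with 21.01 ± 14.3 normalized counts in het and 16.3 ± 4.74 in KO, and Trat1, 99.9 kb after its end, with 9.68 ± 6.43 in het and 41.5 ± 27.6 in KO (SD, n = 3). Trat1 had a limma log2 fold change of 1.84 with an adjusted p of 0.738 and overlapping groups. Its het mean of 9.68 was below the mean of 10 needed for testing. Dppa2 and Dppa4, germ cell and pluripotency genes 111.5 and 137 kb before Morc1, had log2 fold changes of 0.45 and 0.28 with limma adjusted p-values of 0.849 and 0.891. Of the 9 genes, only Myh15, 427 kb after the end of Morc1, had groups that did not overlap. It was also the only one with an unadjusted limma p under 0.05 (log2 fold change 0.72, unadjusted limma p 0.037, adjusted p 0.679). The genes on either side of Morc3 were Dop1b and Chaf1b, a chromatin assembly subunit, at log2 fold changes of -0.11 and -0.31. Those next to Morc2a were Smtn and Osbp2, at -0.23 and -0.26, and those next to Morc4 were Rbm41 and Cldn2, at -0.12 and -0.25. On the 3' side of Morc2b lay the zinc finger gene Zfp563 at 0.04. On its 5' side lay the olfactory receptor gene Olfr55, which was not tested.

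For each member other than Morc1, the genes with the most similar course over the 6 libraries were sought among 14061 protein-coding genes with a mean of at least 100 normalized counts, by the root mean square difference of centred log2 values. For Morc3 they were Rbm22 (0.04) and Gramd1c (0.05), against a deviation of Morc3 itself of 0.35 around its mean. Rbm22 had 4483, 5634 and 2845 normalized counts in het and 4930.4, 3294 and 4828 in KO, low in het replicate 3 and KO replicate 2 as Morc3 was. For Morc4 they were Hspa13 (0.03) and Taf1 (0.04), and for Morc2a Nxt1 and Rabgap1 (both 0.03). For Morc2b they were Wfdc10 (0.07) and Pdpn (0.09). With 6 libraries and this many genes, close matches arise easily, and these are given as a description.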

How the data were processed

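Gonocyte RNA was amplified with a SMART-seq v4 kit before sequencing, per the labels' protocols. The deposited gene and TE values are a signal: read counts divided by one factor per library, which for genes is a DESeq2 size factor, per the name of the deposited table. In every column 100% of values were whole multiples of one step (tolerance 0.001), and the reads recovered from them served edgeR and DESeq2 (129 and 465 genes called, against 123 with limma). The submitters' processing notes name HISAT2 2.1.0, featureCounts 1.5.2, cutadapt 1.18 and DESeq2 1.26.0 and the builds mm10 and GRCm38. The gene table matched GENCODE M21 for 35560 of 35666 identifiers.

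Limma 3.58.1 in R 4.3.3 (eBayes with trend, two-sided) was run on log2(normalized count + 1) for features with a mean of at least 10, P0 het and KO only, without covariates. This scale understates the change of low features. On simulated counts at the size of the gene table (26005 genes), 92.5% of 200 genes changed 4-fold were recovered, with 10 false calls. At the size of the TE table (49781 copies), 71.5% of 200 copies changed 4-fold were recovered, with 2 false calls. Every simulated feature had the same dispersion, and only 4-fold changes were planted. These shares therefore do not apply to smaller changes or to features with a wider spread between libraries. EdgeR 4.0.16 and DESeq2 1.42.0 were alternatives, beside other filters, pseudocounts, scalings and lengths, each library left out, and the replicate number as a block. Sequences were compared with BLAST 2.17.0. No pair of libraries agreed within counting noise. Named genes are all members, the 2 smallest p-values of each list, the nearest neighbours and the 2 closest courses. One gene that this rule names is not reported here. Setdb1, Mphosph8, Smchd1, Dppa2, Dppa4, Myh15 and Olfr63 are further examples named after their values were seen. The members and lists were chosen with earlier results of these data known. Floors cover counting error only.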

Additional observations from a re-analysis of the deposited data

How the results depend on the processing

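The direction of Morc1 held in all 16 alternatives (log2 fold change -2.31 to -1.88 with a library left out), but its call was lost in limma without trend (-2.03, adjusted p 0.089) and in edgeR with the replicate block (-2.04, adjusted p 0.0717). No alternative called another member. With a library left out, log2 fold changes ran from 0.08 to 0.19 for Morc2a, -0.60 to 0.0086 for Morc2b, -0.28 to 0.21 for Morc3 and -0.12 to 0.13 for Morc4. The sign of Morc3 turned with quantile normalization (-0.018), edgeR (-0.027) and DESeq2 (-0.026), and that of Morc4 with the same settings (0.020, 0.0051 and 0.0075). The cause was not tested.

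The number of genes higher in KO (112) was 70 with a pseudocount of 0.1, 177 with a pseudocount of 10, 400 with DESeq2, and 17 to 105 with a library left out. The number lower (11) was 5 with a pseudocount of 0.1, 3 in limma without trend, 65 with DESeq2 and 1 to 7 with a library left out. The lists of related genes had 0 calls in all alternatives. Beside the MORC genes, limma without trend and DESeq2 each called 1 gene, Olfr63. TE copies called within MORC genes (2) became 1 with a mean of at least 50, 5 without a filter, and 1 to 2 with a library left out. TE copies higher in KO (7745) became 2377 with a mean of at least 50 and 3694 to 9000 with a library left out. Those lower (366) became 133 with a mean of at least 50, 617 without a filter, 204 and 607 with pseudocounts of 0.1 and 10, 1034 with quantile normalization, 196 with gene size factors, and 95 to 377 with a library left out.

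Same-numbered het and KO libraries did not deviate together (correlations of deviations across genes 0.138, -0.163 and -0.0438). The numbers were therefore not taken as pairs, and not every library correlated best with its own number. Over all het and KO pairs, correlations ran from -0.200 (het replicate 3, KO replicate 1) to 0.206 (het replicate 3, KO replicate 2). Morc3 was lowest in het replicate 3 and KO replicate 2, and the part of this shared deviation in its values was not tested. With the replicate block, limma called 64 genes higher and 5 lower and 243 TE copies lower, and edgeR 38 genes higher and 0 lower.

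With the longest transcript as length, levels per kb in het were 1567 for Morc1, 815 for Morc2a and 137.5 for Morc4, and in KO 374, 888 and 138, with 1738 for Morc3. The family sums became 4308 in het and 3153 in KO, or 2741 and 2779.6 without Morc1. With the longest coding transcript, added after the data were seen, the values differed only for Morc1 (2065 and 492) and the sums with it (4805 and 3272). The 37 to 93 reads per library on Morc2b, and the few reads per TE copy, limit what those values can show.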
